A study of Rattus norvegicus with 3 samples.

Results

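The Notch receptors Notch1 to Notch4, the ligands Jag1, Jag2, Dll1 and Dll3 and the receptor-modifying enzyme Lfng were compared between rat induced pluripotent stem (iPS) cells and adult rat cells. The 9 genes were taken by the gene name on the array, and each had 1 probe among the 41012 rat probes, which stand for 35499 gene names. RNA of the untreated line Rat iPS M13, grown on irradiated mouse embryonic fibroblast feeders, was labelled with Cy3 as 3 samples. Each was hybridised on a two-colour array against the same Cy5-labelled RNA, mix1, which combined cultured rat bone marrow cells and cultured primary fibroblasts of the rat ear. The labels give neither the age nor the strain of the animals, nor the proportions of mix1, and M13 was the only iPS line. In such bulk RNA, fewer cells of a type and less RNA per cell cannot be told apart.

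Notch receptors are surface proteins that are activated by ligands on neighbouring cells. Ligand binding exposes the receptor to ADAM metalloproteases and then to gamma-secretase, which releases the intracellular domain to join the DNA-binding protein Rbpj in the nucleus and switch on repressors of the Hes and Hey families. Fringe enzymes such as Lfng add a sugar to the receptor and so tune which ligands it answers to. In pluripotent cells the pathway is known mainly for its part in the exit towards neural and mesodermal fates, and in fibroblasts and marrow stroma for communication between cells.

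The ligands went in both directions, and of the tested receptors only Notch2 passed 2-fold. Dll3 and Jag2 were higher in iPS M13 cells by 6.33-fold and 4.28-fold, and Jag1 and Notch2 were lower, with mix1 at 2.50 and 2.09 times the iPS M13 level. Notch3, Notch4 and Dll1 differed by less than 2-fold. Notch1 and Lfng were too dim to be tested. The probes for Dll3 and Jag2, whose ratios were the largest of the 9, and for Notch2 and Notch3, whose ratios relative to the median of all genes varied most with the processing, are given 5′ to 3′ as the deposited files hold them, in lower case throughout since all 60 bases take part in hybridisation.
Dll3: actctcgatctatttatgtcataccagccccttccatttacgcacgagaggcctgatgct
Jag2: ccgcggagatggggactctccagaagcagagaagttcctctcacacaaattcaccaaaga
Notch2: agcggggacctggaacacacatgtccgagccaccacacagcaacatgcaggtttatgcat
Notch3: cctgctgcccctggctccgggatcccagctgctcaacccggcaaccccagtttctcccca

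In build rn3, as listed in the files, the Dll3 probe lies at chr1:83451781-83451957 and the Jag2 probe at chr6:137916170-137916216, both on the minus strand. The Notch2 probe lies on the plus strand at chr2:192948919-192948978 and the Notch3 probe on the minus strand at chr7:12688876-12688935. The listed span of 177 bases for Dll3 is longer than the 60 bases of the probe, and that of 47 bases for Jag2 is shorter. Exons and UTRs of that build were not analysed here. GC content was 48.3% for Dll3, 51.7% for Jag2, 55.0% for Notch2 and 68.3% for Notch3, and it was 35.0% for the Jag1 probe, the lowest of the 9. The longest stretch that any of the 9 probes shared with another of them was 8 bases, and with any other rat probe on the array 15 bases, for Jag2.

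The arrays give a brightness per spot and channel in scanner units, which was corrected for background and normalised within each array by loess, a curve fitted to the ratio against brightness. Probes entered the test when 1 of the RNAs exceeded the background well on all 3 arrays, and the brightest of them stood for each of 20343 genes. A gene was called higher or lower in iPS M13 cells at a Benjamini-Hochberg adjusted p under 0.05 (limma) with at least a 2-fold difference, which 44.2% of the genes tested were, 18.7% higher and 25.5% lower. Of the 9 Notch genes, 2 were called higher, 2 lower, 3 were not called and 2 were not tested. These shares are close to the background, so the number of called members does not set the family apart. With probes tested singly, 43.6% of 24177 were called, 18.4% higher and 25.1% lower, and the 4 called member probes were those of the 4 called genes. The median log2 ratio of the 7 tested members was -0.55, which is that of Notch3, against -0.03 for all genes tested. It was 0.11 against 0.58 for all genes under median centring, and 0.40 for the members after correction for probe GC content, so the family's median has no settled sign. Median centring took off each array's median over all rat spots, dim ones included, which left the tested genes off-centre.

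Several properties of the arrays bear on these values. Of all probes, 53.5% to 60.8% were well above background in iPS M13 and 52.4% to 61% in mix1. Across genes, whose values are not independent, pairs of arrays had ratios correlated at 0.997 to 0.998. Whether the 3 samples were separate cultures is not given by the labels, so the p-values reflect the spread among these samples alone, possibly a technical one. As mix1 was a single RNA, the tests hold no spread of its own. No array had the dyes swapped, and dye and group therefore cannot be told apart. All 3 arrays lay on 1 slide with 1 scan date. The scaling of the arrays also mattered: calls were 42.3% higher after loess, 67.2% after median centring, 65.1% with no within-array normalisation and 56.6% with the scanner software's processed signals. In these 3 settings the median ratio of all genes moved up by 0.61, 0.55 and 0.32 on the log2 scale.

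**Figure D1:**
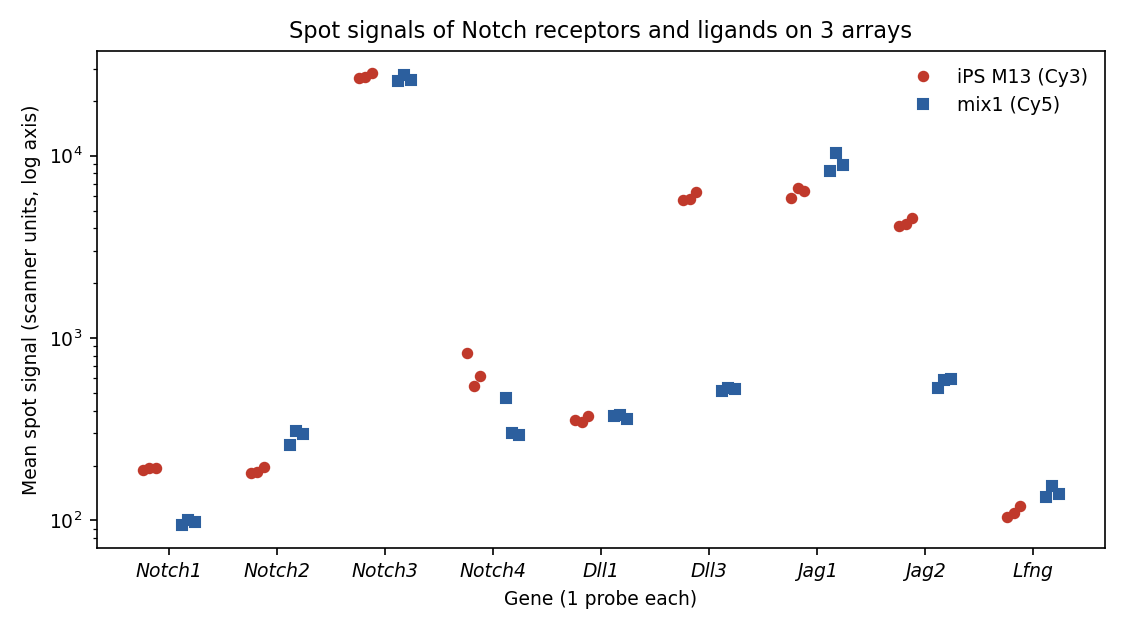
Mean spot signal of each Notch gene in scanner units on a log axis, with iPS M13 (Cy3, circles) left of mix1 (Cy5, squares) and 1 point for each of 3 arrays, before background correction and normalisation. For Dll3 the iPS M13 points lie at 5722 to 6289 and the mix1 points at 514 to 529. Signals are to be compared within a gene only.

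Dll3 had the largest ratio of the family. In mammals its product is known as a divergent ligand that acts mostly inside the cell to dampen Notch signalling, and it is required for the segmentation of the embryonic trunk. Its spot signals were 5722, 5797 and 6289 in iPS M13, against 514, 529 and 525 in mix1, before background correction. After normalisation the log2 ratio (iPS M13 over mix1) came to 2.68, 2.62 and 2.69 on the 3 arrays, with a mean of 2.66 ± 0.04 (SD, n = 3; adjusted p = 1.46e-06, limma). Every raw iPS M13 signal was above every raw mix1 signal. Raw signals of different dyes share no common scale, so overlap, here and for the genes below, describes the spots only. The share of all genes without overlap was not computed. The ratio lay between 2.65 and 3.49 under all settings tried.

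Jag2 encodes a transmembrane ligand with roles in limb, palate and thymus development. In scanner units Jag2 had signals of 4110, 4228 and 4543 in iPS M13, against 533, 587 and 593 in mix1. The log2 ratio was 2.16, 2.06 and 2.07 on the 3 arrays, with a mean of 2.10 ± 0.06 (SD, n = 3; limma adjusted p = 3.61e-06). The raw signals of the groups did not overlap, and both RNAs were well above background on all 3 arrays for Jag2 as for Dll3. Across the settings the ratio ranged from 2.07 to 2.91.

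Jag1, the ligand closest in kind to Jag2 and widely used in vessels, marrow stroma and epithelia, went the other way. Its spot signals were 5887, 6631 and 6411 in iPS M13, against 8227, 10344 and 8931 in mix1. Normalised log2 ratios were -1.29, -1.33 and -1.35, with a mean of -1.32 ± 0.03 (SD, n = 3; limma adjusted p = 3.55e-06). The raw iPS M13 signals were all below the raw mix1 signals, and both RNAs were well above background on every array. The 2-fold call was lost under median centring (-0.48) and without within-array normalisation (-0.54), while relative to the median of all genes Jag1 stood at -1.06 or lower in every setting.

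Dll1, a ligand best known from somite formation, neurogenesis and lymphocyte development, was not called. Its spot signals were 354, 346 and 375 in iPS M13, against 374, 377 and 359 in mix1, and the raw signals of the groups overlapped. After normalisation its log2 ratio was -0.60, -0.57 and -0.51, with a mean of -0.56 ± 0.04 (SD, n = 3; limma adjusted p = 6.26e-05). The difference from 0 exceeded the spread between arrays but was under 2-fold, and it was -0.14 after median centring.

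**Figure D2:**
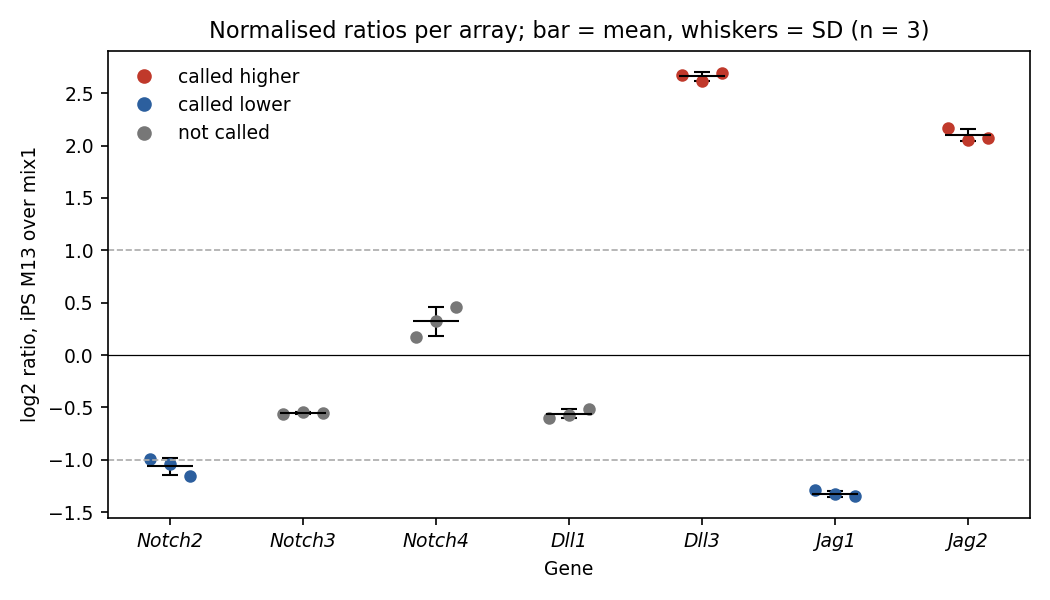
Log2 ratio (iPS M13 over mix1) after loess for the 7 tested Notch genes, with 1 point for each of 3 arrays, the mean as a bar and the SD as whiskers, and dashed lines at 2-fold. Dll3 (2.66) and Jag2 (2.10) lie above the upper line, and Jag1 (-1.32) and Notch2 (-1.06) have means below the lower one.

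Among the receptors, Notch2 was the only one called. It has known roles in B cell, kidney and bone development. Its spot signals were 182, 183 and 197 in iPS M13, against 260, 308 and 299 in mix1, with local backgrounds of the family's spots between 36.0 and 50.5. iPS M13 was well above background on 2 of 3 arrays and mix1 on all 3. The log2 ratio was -0.99, -1.04 and -1.16, with a mean of -1.06 ± 0.08 (SD, n = 3; limma adjusted p = 4.88e-05). Its raw signals did not overlap between the groups, but the mean log2 ratio lay close to the 2-fold limit. The call ended under median centring (-0.81), without within-array normalisation (-0.87) and after correction for probe GC content (-0.54), and the processed signals gave -1.57. Notch2 was not tested when both RNAs had to be above background on all arrays.

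Notch3, the receptor of vascular smooth muscle cells and pericytes, was bright in both RNAs. Before correction Notch3 had signals of 26740, 27001 and 28266 in iPS M13, against 25543, 27546 and 26096 in mix1, and the raw groups overlapped. The log2 ratio was -0.57, -0.54 and -0.55, with a mean of -0.55 ± 0.01 (SD, n = 3; limma adjusted p = 1.65e-05), which is under 2-fold. The sign turned under median centring (0.11), without within-array normalisation (0.05) and after GC correction (0.56), so no direction is given for Notch3. Over all kept probes the log2 ratio fell by 0.44 per 10% of probe GC content, and the Notch3 probe had the highest GC content of the 9.

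Notch4, known chiefly from endothelium, was not called. Spot signals were 828, 547 and 622 in iPS M13, against 467, 303 and 294 in mix1. The first array was the brightest of the 3 in both RNAs. The log2 ratio was 0.18, 0.32 and 0.46, with a mean of 0.32 ± 0.14 (SD, n = 3; limma adjusted p = 0.0104), and it had the widest spread of the tested members. Without replicate 1 the mean was 0.39, without replicate 3 it was 0.25, and after median centring it was 0.84.

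Notch1, the receptor with the broadest known use in embryo and blood, could be given only as an approximate bound. Its spot signals were 189, 193 and 194 in iPS M13, against 94.1, 101 and 98.0 in mix1. iPS M13 was well above background on 2 of 3 arrays and mix1 on none. With the mix1 level on each array taken as the higher of its own and the lowest level well above background, Notch1 was 1.26-fold higher in iPS M13. The iPS M13 level was used as measured on all 3 arrays, so this is no strict lower bound. On replicate 2 that lowest level lay below the Notch1 signal of mix1, which was used unchanged.

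Lfng, the lunatic fringe glycosyltransferase of the segmentation clock, could also be given only as an approximate bound. Spot signals were 104, 110 and 120 in iPS M13, against 134, 155 and 140 in mix1. iPS M13 stayed near background on all 3 arrays and mix1 exceeded it well only on replicate 2. Taken the same way, Lfng was 1.20-fold lower in iPS M13. The mix1 level was used as measured on all 3 arrays, so this is no strict lower bound either. Both genes were left out of the test as too dim. The log2 ratios without the filter on dim probes, 0.56 for Notch1 and -0.64 for Lfng, are near the background and no measure of size.

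**Figure D3:**
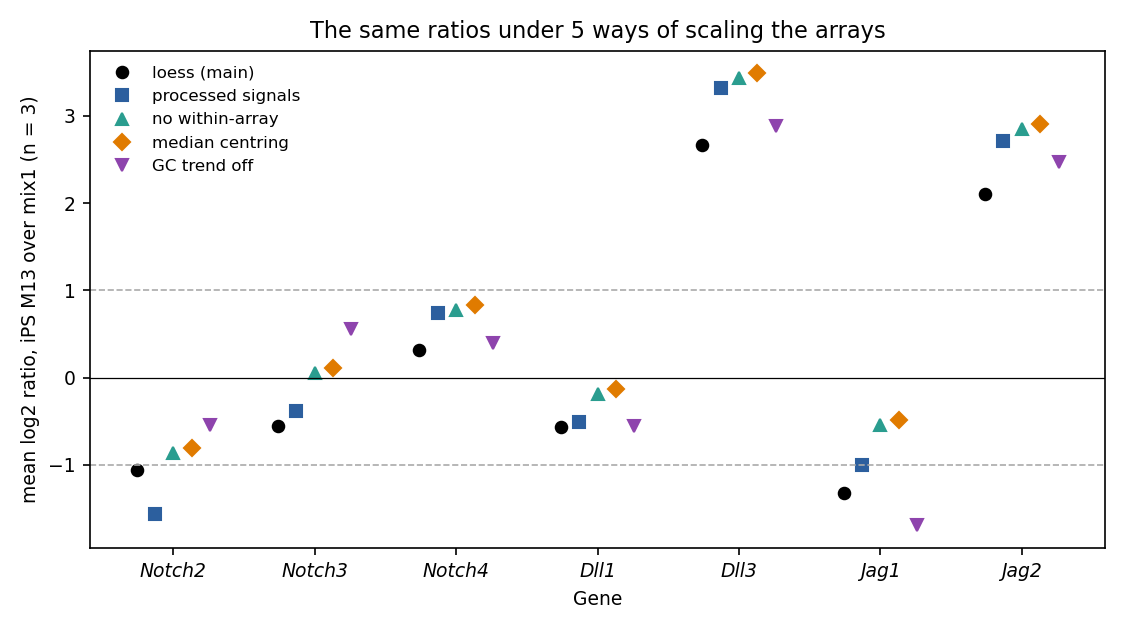
Log2 ratios (iPS M13 over mix1, means of n = 3 arrays) for the 7 tested Notch genes under 5 ways of scaling the arrays, with dashed lines at 2-fold. Dll3 and Jag2 stay above 2-fold in all 5, Notch3 lies on both sides of 0, and Jag1 ranges from -1.69 to -0.48.

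The rest of the pathway was described over 68 further genes, of which 47 were tested. Called were 4 higher and 16 lower in iPS M13, and 27 were not called, with a median log2 ratio of -0.40. The called share of 20 in 47 is close to the 44.2% of all genes. Within it, 5 of 9 cleavage proteases were lower, or 3 lower and 2 higher under median centring. All 6 tested of 13 listed target genes were lower, or 5 under median centring, but Hes1 and Sox9 among them passed the filter on dim probes only through mix1, so their count is not set against the 25.5% of all genes.

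Among the fringe and other Notch glycosyltransferases, 1 of 5 was called higher and 1 lower. Mfng, manic fringe, had a log2 ratio of 2.60 ± 0.08 (SD, n = 3; limma adjusted p = 3.78e-06) with both RNAs measured on all arrays. Rfng, radical fringe, was at -0.19 ± 0.02 and was not called, and its sign turned under median centring (0.67), no within-array normalisation (0.61), the processed signals (0.24) and GC correction (0.11). The protein O-fucosyltransferase Pofut2, which acts on other repeats than those of Notch, was lower at -1.22 ± 0.04 (-2.33 from its other probe). Its call ended under median centring (-0.45), no within-array normalisation (-0.51) and the processed signals (-0.96). Of the further ligands, the endothelial ligand Dll4 was near background in both RNAs on all arrays and was not tested.

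Genes of gamma-secretase, the complex that cuts the receptor inside the membrane, did not all move alike. The catalytic subunit gene Psen2 was not called, at 0.96 ± 0.01, but it reached 2-fold under median centring (1.78), no within-array normalisation (1.72) and the processed signals (1.31). The subunit genes called lower were Aph1b at -3.42 ± 0.02, Psenen at -2.25 ± 0.01, Aph1a at -1.41 ± 0.02 and Ncstn at -1.13 ± 0.03 (limma adjusted p = 6.68e-07 to 5.84e-06). The calls of Aph1a and Ncstn ended under median centring (-0.61 and -0.29) and no within-array normalisation (-0.67 and -0.35), and that of Ncstn also with the processed signals (-0.76). Furin, which trims the receptor before it reaches the surface, was lower at -3.04 ± 0.04 with iPS M13 measured on 2 of 3 arrays. The sheddases Adam10 (0.50 ± 0.03) and Adam17 (-0.91 ± 0.02) were not called, though Adam10 passed 2-fold under median centring (1.33) and no within-array normalisation (1.28). Furin, Psenen and Aph1a were named after their values were seen.

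**Figure D4:**
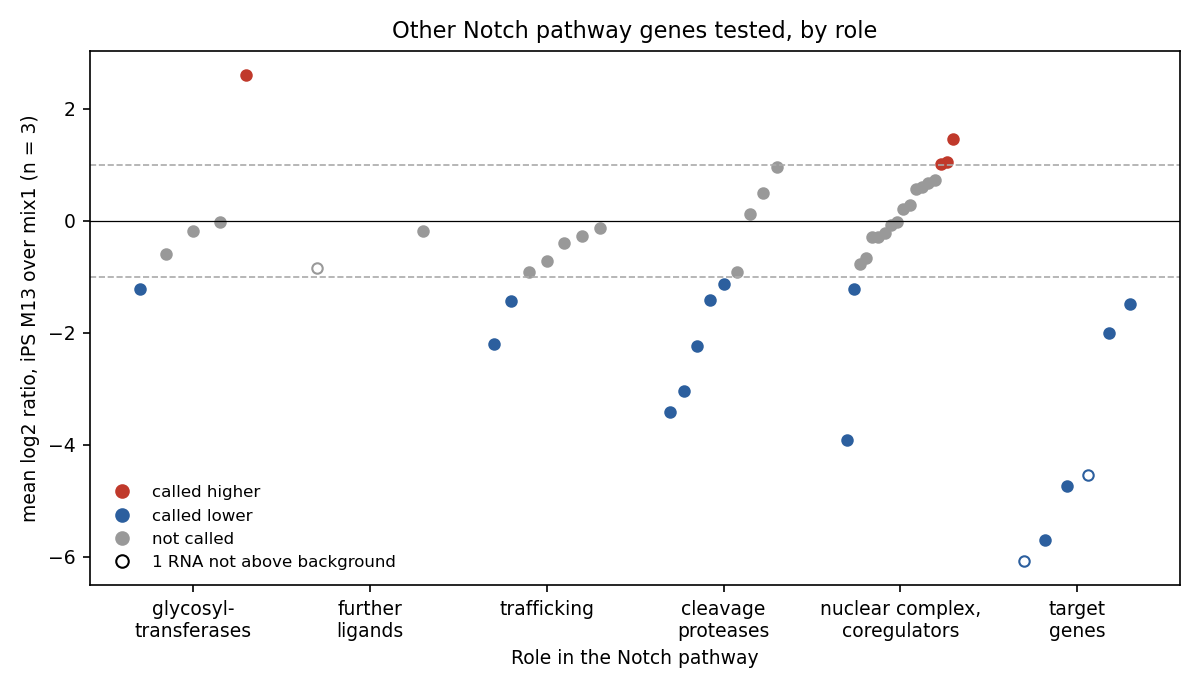
Log2 ratios (iPS M13 over mix1, means of n = 3 arrays) for the 47 other Notch pathway genes tested, by role, with open circles where 1 RNA was not above background on any array and the measured ratio is no measure of size. All 6 tested genes of the target list lie below the lower 2-fold line, and Mfng is the highest point at 2.60.

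Of 14 genes of ligand endocytosis and receptor trafficking, 7 were tested and 2 were lower. Neurl2, a relative of the Neuralized ubiquitin ligase, was at -2.21 ± 0.05, and the ubiquitin ligase gene Nedd4 at -1.44 ± 0.12, or -0.98 under median centring, which ended its call. Of 23 genes of the nuclear complex and its coregulators, 18 were tested, 3 higher and 2 lower. Rbpj, the DNA-binding core, was at -0.78 ± 0.01 and was not called, and its sign turned under median centring (0.08) and no within-array normalisation (0.02). The coactivator Maml1 was above background on only 2 of 3 arrays in each RNA and was not tested. Tle4 of the Groucho corepressors was higher at 1.46 ± 0.12, with mix1 measured on 1 of 3 arrays, and 2.67 with the processed signals. Its relative Tle2 was lower at -3.92 ± 0.13, with iPS M13 measured on 2 of 3 arrays. Named after their values were seen, Tle1 was higher at 1.05 ± 0.03, and the acetyltransferase gene Kat2a at 1.00 ± 0.02 lost its call without replicate 2 (0.99). The acetyltransferase gene Kat2b was lower at -1.22 ± 0.02, a call that ended under median centring (-0.38), no within-array normalisation (-0.43) and the processed signals (-0.88).

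All 6 genes of the target list that could be tested were lower in iPS M13. Whether each of them answers to Notch in these cells was not tested. Hes1, the repressor most directly tied to receptor activity, was at least 15.9-fold lower in iPS M13, since iPS M13 was near background on every array while mix1 was well above it on all 3 (limma adjusted p = 7.26e-06, lower on 3 of 3 arrays). The brightest Sox9 probe was at least 35.7-fold lower on the same terms. Another Sox9 probe gave a log2 ratio of -3.52, a smaller difference than that bound, so the bound holds for the 1 probe and not for the gene. Hes6, whose product opposes that of Hes1, was at -1.49 ± 0.01, a call lost under median centring (-0.65) and no within-array normalisation (-0.71). Myc (-5.71 ± 0.03), the cyclin gene Ccnd1 (-4.74 ± 0.02) and the clock repressor gene Hes7 (-2.0 ± 0.01) were lower too and were named after their values were seen. The Hes7 ratio was -0.59 after GC correction. Hes5, Hey1, Hey2 and Heyl did not pass the filter on dim probes and were not tested, and Nrarp had no probe under its name. Many other signals also control Hes1, Myc, Ccnd1 and Sox9, and the list's median of -4.64, or -4.36 with Hes1 and Sox9 at their bounds, is that of the 6 genes that passed the filter, which a gene bright in mix1 alone could do.

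Because Hes1 is the classical target, the 250 bases before its transcription start are shown, on the minus strand of build GRCr8 at chr11:84213046-84213295, from RefSeq, with the Rbpj-type motif TGGGAA in capitals. The motif was searched on both strands, as TGGGAA and TTCCCA, which do not overlap each other here.
Hes1: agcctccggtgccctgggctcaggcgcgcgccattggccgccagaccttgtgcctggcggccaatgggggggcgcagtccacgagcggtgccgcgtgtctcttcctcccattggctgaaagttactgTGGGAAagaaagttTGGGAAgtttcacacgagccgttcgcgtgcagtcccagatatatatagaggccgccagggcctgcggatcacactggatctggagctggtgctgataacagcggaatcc

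The motif occurred 2 times in the Hes1 window, starting 123 and 109 bases before the start. Of 33469 windows of this length in the table, 22.1% held it at least once and 2.71% at least 2 times. All 9 Notch genes matched a window, and 3 of them, Notch4, Dll1 and Lfng, held the motif, each 2 times, whereas no window of Dll3, Jag2, Jag1 or Notch2 did. These are letter matches only.

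Cell type markers separated the RNAs. Of 10 pluripotency markers 6 were called higher among 7 tested, with Sox2 at 2.62 ± 0.07, while 3 of the list, Nanog among them, had no probe by that name. The other tested marker, Lin28a, was not called at -0.16 ± 0.04, with both RNAs well above background on all 3 arrays. Of the 6, Pou5f1 passed the filter on dim probes only through iPS M13, so their count is not set against the 18.7% of all genes called higher. All 10 fibroblast markers and all 9 tested macrophage and blood markers of 10 were lower. Of these, 2 fibroblast markers and 3 macrophage and blood markers were well above background in iPS M13 on no array. They passed the filter only through mix1, so these counts are not set against the 25.5% of all genes called lower. The summed normalised signal of the fibroblast markers was 17375 to 20680 in iPS M13 and 2103049 to 2385034 in mix1, and that of the macrophage and blood markers 3606 to 3822 in iPS M13 and 251029 to 263059 in mix1. Smooth muscle and pericyte markers, which Notch3 is known to accompany, were lower in 8 of 8 tested of 10, with sums of 3760 to 4059 in iPS M13 and 443856 to 460119 in mix1. Of the 8, 2 passed the filter only through mix1. Of 10 endothelial markers 4 were tested, 1 higher and 1 lower, with sums of 1588 to 1760 in iPS M13 and 6700 to 7172 in mix1. Most of the mix1 sum came from Egfl7, the gene called lower, with a mean log2 level of 12.54 in mix1. Tek, Esam and Kdr lay at 7.16 to 8.94 there, and Tek, the gene called higher, passed the filter only through iPS M13. The defining genes Pecam1 and Cdh5 were near background in both RNAs on every array. The part of these cell types in the Notch gene ratios was not tested. Nor was hybridisation of RNA from the mouse feeders to the rat probes.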

How the data were processed

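Agilent two-colour arrays measured 3 Rat iPS M13 samples (Cy3) against mix1 (Cy5). The deposited spot intensities came from Agilent Feature Extraction 9.5.3.1, per the file headers, with no background subtracted. Processed intensities and log10 ratios (Cy5 over Cy3) in the deposited files were, per the file headers, detrended and dye-normalised by it. A table of log2 ratios from the authors states neither scale nor direction. Its correlation with the log10 ratios was -0.99986 to -0.999955 at a slope of -3.32, so it was read as a log2 ratio with Cy3 on top. Its column medians were -0.0413, -0.0282 and -0.0286, and its centring stays unknown.

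Mean signals and median backgrounds were corrected by normexp (offset 50) and normalised by loess within arrays in limma 3.58.1 under R 4.3.3, with control spots at weight 0. Outlier spots (205, 263 and 192 on replicates 1, 2 and 3) were left out. Of 41012 probes, 24177 were kept. Names were updated through RefSeq genes of GRCr8 by accession (10735 probes), symbol (5577), synonym (3730), gene ID (1217) or a further accession (35), and 19718 kept the file's name. The mean ratio was tested against 0 with lmFit and eBayes, adjusted over all genes. On simulated ratios for 20343 genes, 98 of 100 genes changed by 1.5 on the log2 scale and 100 of 100 changed by 3 were recovered, with 0 false calls. Unchanged genes were drawn around 0 with the spread between arrays, whose median SD was 0.034, while a call needed at least 2-fold. False calls could therefore hardly arise, and shifts from dye, scaling or probe GC content were not simulated. Tables were made with pandas 2.3.3 and numpy 2.4.6 under Python 3.11.15, and figures with matplotlib 3.10.9.

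The members and gene lists were chosen with earlier results of these data known. Named were all members, a fixed set of 16 pathway genes, and the highest and lowest called gene of each pathway list, with exceptions stated in the text and 1 gene of the set not reported here. Alternatives changed the background correction, scaling, filter, probe choice, GC trend, outliers and replicates. Precision is limited by the number of arrays, 3.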

Additional observations from a re-analysis of the deposited data

How the results depend on the processing

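Among 32 named genes with a value, 442 comparisons with another setting were made: 402 kept the sign and the side of the threshold, 24 lost the call, 6 gained one and 10 turned sign. Many of these comparisons could not move a ratio. Both changes of the filter left the ratios as they were, as did the mean over all kept probes for genes with 1 kept probe. The processed signals and the authors' value table gave nearly the same ratios but were counted separately. The 402 is therefore no measure of robustness. The turned values were 0.11, 0.0487 and 0.56 for Notch3 (median centring, no within-array normalisation, GC correction) and 0.0753 and 0.0182 for Rbpj (median centring, no within-array normalisation). For Rfng they were 0.67, 0.61, 0.24 and 0.11 (median centring, no within-array normalisation, the processed signals, GC correction), with 0.24 from the authors' value table too. Median centring and no within-array normalisation each called 2 Notch members (2 probes), Dll3 and Jag2, and 0 lower, since Jag1 and Notch2 no longer reached 2-fold in limma although both had an adjusted p under 0.05. The count of lower members was 1 when the filter asked for both RNAs on every array, which left Notch2 untested, and 1 after GC correction. Genes called higher numbered 3808 after loess, 7409 under median centring, 7005 without within-array normalisation, and 6319 with the processed signals or the authors' value table. Other pathway genes called higher numbered 12 under median centring and 12 without within-array normalisation, against 4, and lower ones 10 under median centring, against 16. For scaling settings the shift of the median of all genes moves with these counts. For the other changes the cause was not tested. Leaving out 1 array kept all 4 member calls. Slide as a block was not run, since all arrays lay on 1 slide. No paired analysis was possible because each array already held both RNAs and the samples form 1 group. Dimness limits Notch1, Lfng, Notch2, Dll4 and the Hey genes.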

Other observations

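Markers of neural progenitors and neurons were called higher in iPS M13 for 7 of 8 tested of 10 genes. Among the 7, Pax6 and Map2 passed the filter on dim probes only through iPS M13. The count is therefore not set against the 18.7% of all genes called higher. The neurogenic factor gene Neurog1 had a log2 ratio of 4.0 ± 0.21 (SD, n = 3; limma adjusted p = 1.46e-05) with mix1 measured on 1 of 3 arrays. Pax6 was 12.5-fold higher as an approximate bound, close to the measured 12.7-fold. On replicate 2 the lowest mix1 level well above background lay below the Pax6 level, which was used unchanged. The neuron gene Stmn2 was at 2.58 ± 0.03 with both RNAs measured on all arrays. Neurog2 was well above background only in mix1 on 1 array. The summed normalised signal of the list was 90306 to 97689 in iPS M13 and 28105 to 30089 in mix1.

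A few further Notch-related genes differed by less than 2-fold or were too dim for a test. Hey1, which was not tested, was well above background in iPS M13 on 2 of 3 arrays and in mix1 on none. Its mix1 level was on no array under the lowest level well above background, so no bound could be set. The measured 1.31-fold is no measure of size. The coactivator gene Maml2, also untested, was well above background in mix1 on 2 of 3 arrays and in iPS M13 on none. Its approximate bound was 1.35-fold lower, with mix1 used as measured on all 3 arrays. The Delta-like homologue Dlk2 was tested through mix1, measured on all 3 arrays, and was not called, at least 1.65-fold lower (limma adjusted p = 4.29e-05). The endocytic adaptor gene Numb, an antagonist of the receptor, was tested with both RNAs measured on all arrays, had a log2 ratio of -0.92 ± 0.02 and was not called. These 4 genes were picked after their values were seen.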
